A study of Mus musculus with 28 samples.

Results

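Described here are 9 mouse genes of inflammatory cell death: the caspases Casp1, Casp4 and Casp12, the adapter Pycard, the gasdermins Gsdma, Gsdmd, Gsdmc and Gsdmc2, and the initiator caspase Casp8. They were taken by symbol from count tables of 47729 gene IDs, and each of the 9 symbols matched 1 ID. The cells were epidermal stem cells sorted from the skin of C57BL/6 mice labelled female, as positive for integrin α6, integrin β1 and Sca1 and negative for CD34. From postnatal day 60 the skin received either imiquimod, an agonist of Toll-like receptor 7, or vanicream as control for 6 days. RNA was sequenced at day 6, at day 30, and 6 h or 12 h after full thickness wounds made on the back at day 30, so that all wounded groups share the day 30 interval. The labels place the unwounded day 30 harvest 30 days after treatment, without saying whether from its start or its end. This gives 8 groups of 2 libraries. The sources used here do not say how many mice stand behind a library or whether the 2 libraries of a group came from separate mice. Sex-linked reads, given below, place the 2 libraries of each unwounded day 30 group in different mice. P-values then measure only the spread between these libraries, which in the other groups may be technical. In sorted bulk RNA, fewer cells of a type and less RNA per cell cannot be told apart.

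Inflammasomes are complexes in which a sensor protein recruits, often through the adapter encoded by Pycard (ASC), the protease encoded by Casp1. Casp1 matures interleukin 1β and interleukin 18 and cleaves gasdermin D, whose freed part forms pores in the plasma membrane, while mouse Casp4 senses cytosolic lipopolysaccharide and cleaves gasdermin D directly. Epidermis is also known for gasdermins of the A and C groups, and Casp8 starts death receptor apoptosis and holds necroptosis in check.

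Library totals ran from 23623968 to 76993427 counts, so that the lowest count of any of the 9 genes was 11 (Gsdmd) and the highest 9992 (Gsdmc). Levels are in CPM, the counts of a gene put on the same total for each library. The basal keratin genes Krt14 and Krt5 stood at 9900 CPM or more in every library. The 2 libraries numbered 1 at day 30, in either treatment group, carried 6023 and 7830 reads of Y-linked genes and at most 1 Xist read, against their label, whereas the other 14 carried at most 2 Y-linked reads. Library 2 of day 30 carried 53065 Xist reads in control and 44150 in imiquimod. The 2 libraries of each of these groups thus came from different mice. The share of mitochondrial transcripts was 7.65% in imiquimod library 1 of day 6 and 3.31% or less elsewhere.

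Imiquimod went at day 6 with higher levels of the 3 inflammatory caspases, Gsdmd, Gsdmc and Gsdmc2, and after the end of treatment the 3 caspases stayed higher when day 30 and both wound times were averaged. At day 6, 6 of the 9 genes passed the threshold (adjusted p under 0.05, edgeR), all higher, against 36.6% of the 17299 tested genes in either direction and 21.6% higher. Libraries with the same number deviated together within a time point, and with that number as a block all 9 passed. The shares of 36.6% and 21.6% are from the fit without the block, and none with it is reported here for day 6. The median log2 change of the 9 genes was 1.84, beside 0.10 for all genes tested. In the average effect over day 30 and both wound times, 3 of 9 passed, all higher, where 0.202% of all genes passed and 0.0809% were higher. In a fit of only the libraries compared, Casp4 (adjusted p = 0.0557, edgeR) and Casp12 (adjusted p = 0.0872, edgeR) no longer passed there. The calls of these 2 genes are less firm than that of Casp1, as given for each gene.

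Taken singly, the later time points gave few calls for any gene. At day 30 edgeR called 0 of the 9 genes, against 0.0116% of all genes, and DESeq2 called 1 of the 9. An unadjusted p under 0.05 was held by 2 of the 9 and by 716 of all 17299 genes. In 6 h wounds edgeR called 0 of 9 for imiquimod against control, against 0.0347% of all genes, and DESeq2 called 2 of the 9. There 5 of the 9 and 1091 of all genes had an unadjusted p under 0.05. In 12 h wounds edgeR called 0 of 9, against 0% of all genes, and DESeq2 called 2 of the 9. There 3 of the 9 and 425 of all genes had an unadjusted p under 0.05. With the block edgeR called 1 of 9 at day 30, 2 at 6 h and 2 at 12 h. The calls over all genes with DESeq2 and with the block are given under how the results depend on the processing. The median log2 change of the 9 genes was 0.23 at day 30, 0.76 at 6 h and 0.63 at 12 h, while that of all genes lay within 0.03 of 0 each time.

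**Figure D1:**
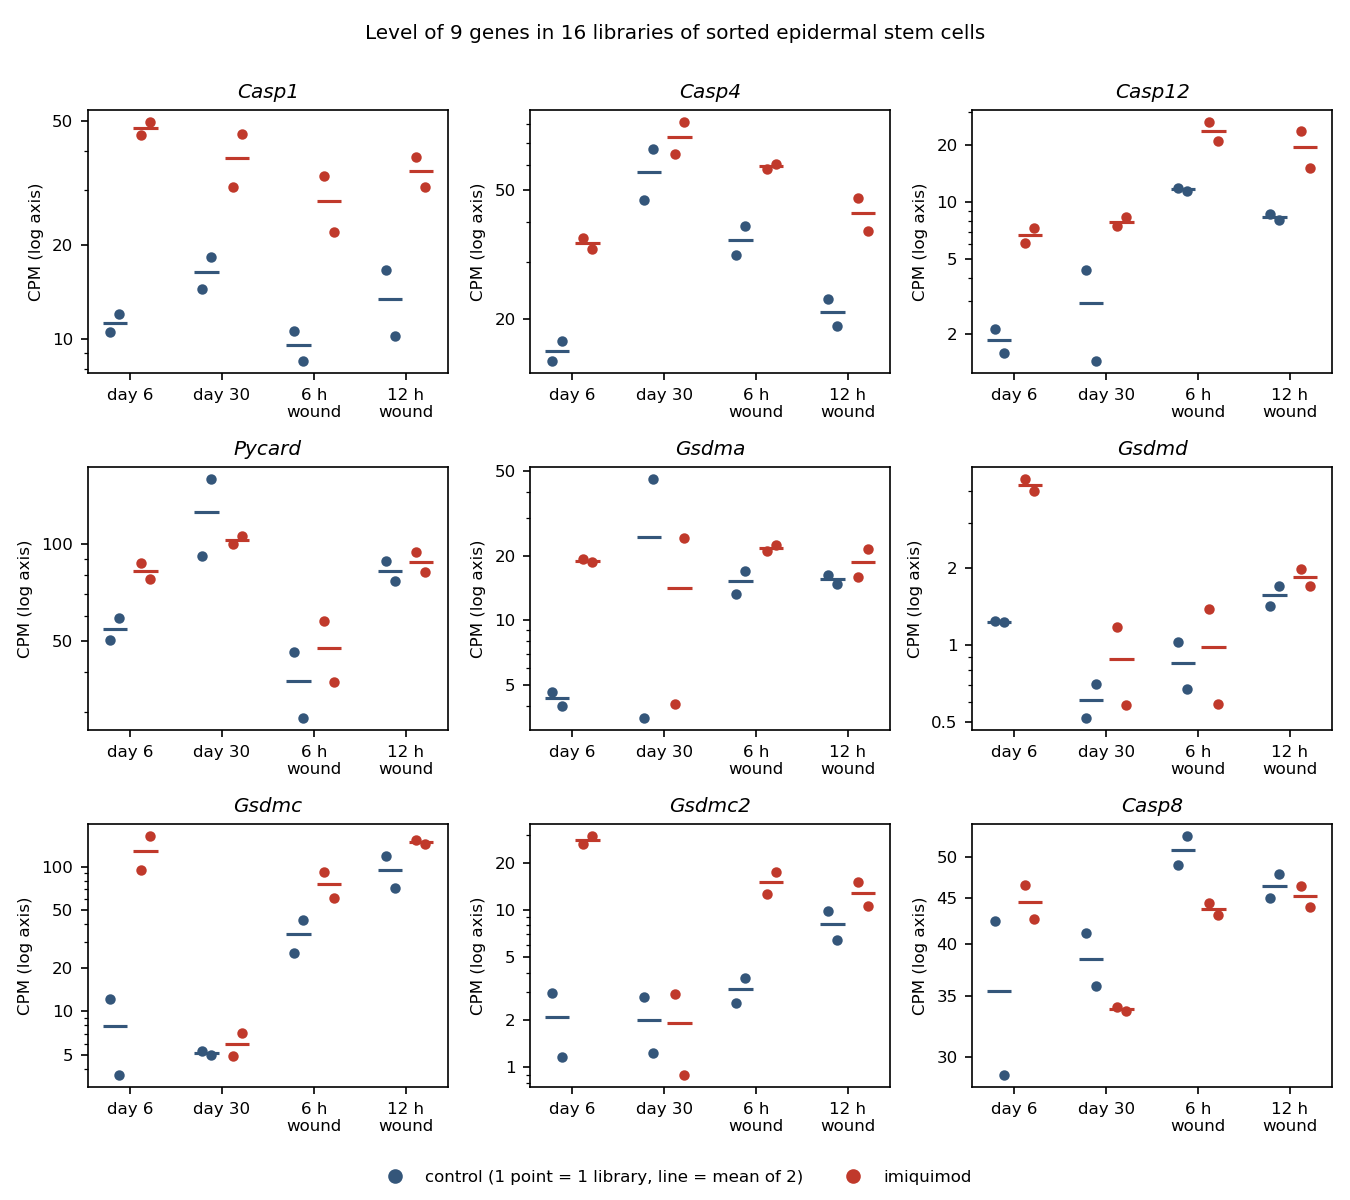
Level of each gene in CPM on a log axis (vertical) at day 6, day 30 and 6 h and 12 h after wounding (horizontal), with control libraries in blue, imiquimod libraries in red, 1 point per library and a line at the mean of 2. Both red points of Casp1 lie above both blue points at each of the 4 times, while those of Pycard do so only at day 6, and those of Casp8 lie above the blue points at day 6, below them at day 30 and 6 h, and among them at 12 h.

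Casp1, the protease of the canonical inflammasome, was higher with imiquimod at day 6 and in the later mean. In control libraries it stood at 10.5 and 12.0 CPM at day 6, 14.4 and 18.3 at day 30, 10.6 and 8.47 in 6 h wounds, and 16.7 and 10.2 in 12 h wounds. In imiquimod libraries it stood at 45.1 and 49.8 CPM at day 6, 30.7 and 45.7 at day 30, 33.4 and 22.0 in 6 h wounds, and 38.4 and 30.8 in 12 h wounds. Every imiquimod library lay above every control library of any time, the lowest at 22.0 and the highest control at 18.3 CPM.

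At day 6 the log2 change of Casp1 was 2.08 ± 0.28 (SE, n = 2 libraries per group; adjusted p = 0.000144, edgeR). Its mean change over day 30, 6 h and 12 h was 1.38 ± 0.16 (adjusted p = 0.00343, edgeR), and the call held when any 1 of those 12 libraries was left out. The single later changes were 1.22 ± 0.28 at day 30 (adjusted p = 0.692), 1.54 ± 0.28 at 6 h (adjusted p = 0.126) and 1.37 ± 0.27 at 12 h (adjusted p = 0.312), none past the threshold. With the replicate number as a block within time points, all 3 were called, with adjusted p = 0.0367, 0.00492 and 0.00944 by edgeR. The day 6 effect exceeded the day 30 effect by 0.86 ± 0.38, which did not pass (adjusted p = 0.13) and passed with the block (0.87, adjusted p = 0.00757, edgeR).

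Casp4, the lipopolysaccharide sensor, moved with time as well as with treatment. Control libraries held 14.8 and 17.1 CPM at day 6, 46.7 and 67.2 at day 30, 31.5 and 38.7 in 6 h wounds, and 23.0 and 19.0 in 12 h wounds. Imiquimod libraries held 35.6 and 33.0 CPM at day 6, 64.5 and 81.3 at day 30, 58.3 and 60.2 in 6 h wounds, and 47.4 and 37.5 in 12 h wounds. Within a time the treatment groups were separate except at day 30, where they overlapped, and the 4 day 30 libraries were high whatever the treatment.

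The log2 change of Casp4 with imiquimod was 1.11 ± 0.20 at day 6 (adjusted p = 0.000942, edgeR) and 0.71 ± 0.11 in the mean of the 3 later effects (adjusted p = 0.0249, edgeR). The later mean lost its call in a fit of only the libraries compared (adjusted p = 0.0557) and without any 1 of 8 of the 12 libraries: imiquimod library 2 at day 30, control library 1 and either imiquimod library of 6 h wounds, and each of the 4 libraries of 12 h wounds (adjusted p up to 0.103). The single later changes, 0.36 ± 0.20 at day 30, 0.76 ± 0.20 at 6 h and 1.01 ± 0.20 at 12 h, did not pass, and that at 12 h passed with the block (adjusted p = 0.0214, edgeR). For the day 6 effect minus the day 30 effect, 0.75 ± 0.28, the adjusted p was 0.0699, and 0.00808 with the block.

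Casp12, a caspase of the same subfamily, had the widest spread of the 3 between groups. Its counts were the lowest of the 3 except in 6 h control wounds, where those of Casp1 were lower. In control libraries it stood at 2.14 and 1.59 CPM at day 6, 4.40 and 1.45 at day 30, 11.9 and 11.5 in 6 h wounds, and 8.63 and 8.05 in 12 h wounds. In imiquimod libraries it stood at 6.11 and 7.33 CPM at day 6, 7.47 and 8.33 at day 30, 26.6 and 21.0 in 6 h wounds, and 23.8 and 15.2 in 12 h wounds. The treatment groups did not overlap at any of the 4 times, and within a treatment the wounded libraries lay above the unwounded ones.

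The log2 change of Casp12 with imiquimod was 1.84 ± 0.39 at day 6 (adjusted p = 0.00282, edgeR) and 1.24 ± 0.22 in the mean of the 3 later effects (adjusted p = 0.0414, edgeR). The later call held without either control library of day 30 and was lost without any 1 of the other 10 libraries, with adjusted p up to 0.16, and in a fit of only the libraries compared (adjusted p = 0.0872). The single later changes were 1.47 ± 0.39 at day 30, 1.02 ± 0.37 at 6 h and 1.22 ± 0.37 at 12 h, none past the threshold. The day 6 effect exceeded the day 30 effect by 0.37 ± 0.54, which did not pass (adjusted p = 0.68).

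**Figure D2:**
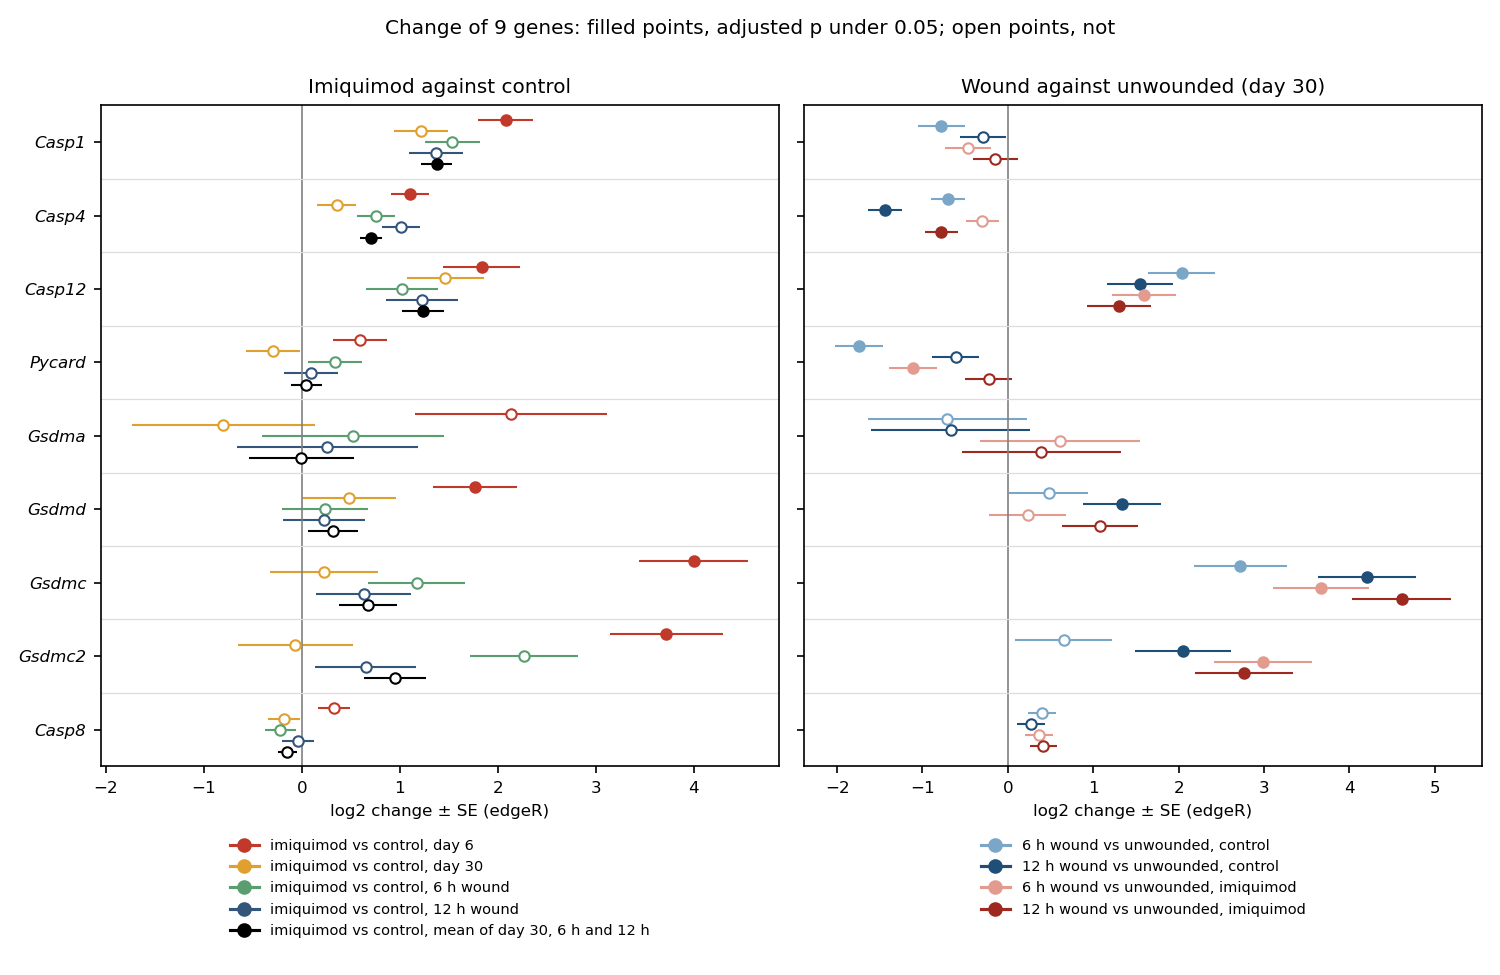
Log2 change ± SE by edgeR (horizontal) for the 9 genes (vertical), imiquimod against control on the left and wounded against unwounded skin on the right, with filled points where the adjusted p was under 0.05. Casp1, Casp4 and Casp12 are right of 0 in all 5 comparisons on the left, but on the right Casp12 is above 0 and Casp4 below it.

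Wounds were compared with unwounded day 30 skin within each treatment. In control skin at 6 h, 5 of the 9 genes passed, 2 higher and 3 lower, where 34.7% of all genes passed, 18.0% higher and 16.7% lower. At 12 h in control skin, 5 of 9 passed, 4 higher and 1 lower, where 30.8% of all genes passed, 16.5% higher and 14.3% lower. In skin treated with imiquimod, 4 of 9 passed at 6 h, 3 higher and 1 lower, where 38.7% of all genes passed, 20.1% higher and 18.6% lower. At 12 h in that skin, 4 of 9 passed, again 3 higher and 1 lower, where 37.6% of all genes passed, 20.3% higher and 17.3% lower. With a background this high the counts say little about the 9 genes as a group, and the direction of each gene is given instead.

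After wounding, Casp12 rose in all 4 comparisons and its neighbour Casp4 fell in 3 of them. The difference between the genes was not tested. Casp12 rose in control skin by 2.04 ± 0.39 at 6 h (adjusted p = 0.00179, edgeR) and 1.55 ± 0.39 at 12 h (adjusted p = 0.00981, edgeR). In imiquimod skin it rose by 1.59 ± 0.38 at 6 h (adjusted p = 0.00501, edgeR) and 1.30 ± 0.37 at 12 h (adjusted p = 0.0153, edgeR). The control changes depend on the day 30 control libraries, which differ: without library 1 they were 3.02 and 2.51, and without library 2 they were 1.43 and 0.93, all still called. In a fit of only the libraries compared, the 12 h change in control skin was 1.54 and did not pass (adjusted p = 0.0861). The 12 h call in imiquimod skin was lost without either imiquimod library of day 30 and without library 1 of the 12 h wounds (adjusted p up to 0.136).

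Casp4 fell in control skin by 0.70 ± 0.20 at 6 h (adjusted p = 0.0148, edgeR) and by 1.44 ± 0.20 at 12 h (adjusted p = 0.000256, edgeR). In imiquimod skin its change was -0.30 ± 0.19 at 6 h, which did not pass (adjusted p = 0.244), and it fell by 0.78 ± 0.20 at 12 h (adjusted p = 0.00739, edgeR). The 6 h call in control skin was lost without day 30 control library 2 (-0.40, adjusted p = 0.172), without 6 h control library 1 (-0.56, adjusted p = 0.112) and in a fit of only the libraries compared (-0.70, adjusted p = 0.0736). The 12 h call in imiquimod skin was lost without day 30 imiquimod library 2 (adjusted p = 0.0662) or 12 h imiquimod library 2 (adjusted p = 0.0731). Casp1 fell by 0.78 ± 0.28 in 6 h control wounds (adjusted p = 0.0441, edgeR), a call lost without any 1 of the 4 libraries compared (adjusted p from 0.052 to 0.239) and in a fit of those libraries alone (adjusted p = 0.0758), and did not pass in the other 3 wound comparisons, where its changes ran from -0.46 to -0.15.

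No gene of the 17299 passed for a wound effect that differed between the treatments at 6 h or at 12 h, a background of 0% at both times by edgeR, so 0 of the 9 did. At each time 1 of the 9 had an unadjusted p under 0.05, beside 1057 of all 17299 genes at 6 h and 503 at 12 h. DESeq2 called 0 of the 9. The genes under 0.05 were Gsdmc2 at 6 h (2.33 ± 0.80, adjusted p = 0.686) and Casp4 at 12 h (0.66 ± 0.28, adjusted p = 1).

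The ratio of 2 neighbours within a library does not depend on how libraries were scaled. Per 100 counts of Casp4 there were 14.4 and 9.32 counts of Casp12 in day 6 control libraries, 9.42 and 2.15 at day 30, 37.9 and 29.8 in 6 h wounds, and 37.5 and 42.3 in 12 h wounds. In imiquimod libraries there were 17.2 and 22.2 at day 6, 11.6 and 10.3 at day 30, 45.6 and 34.9 in 6 h wounds, and 50.2 and 40.6 in 12 h wounds. All 8 wounded libraries lay above all 8 unwounded ones, the nearest being 29.8 and 22.2. Casp1 per 100 counts of Casp4 was highest in day 6 imiquimod libraries, at 127 and 151, and low in 6 h control wounds, at 33.7 and 21.9, and in day 30 control libraries, at 30.9 and 27.2. With 2 libraries against 2, an exact two-sided permutation test of such a ratio cannot go below p = 0.333, so no test was made of single pairs of groups.

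**Figure D3:**
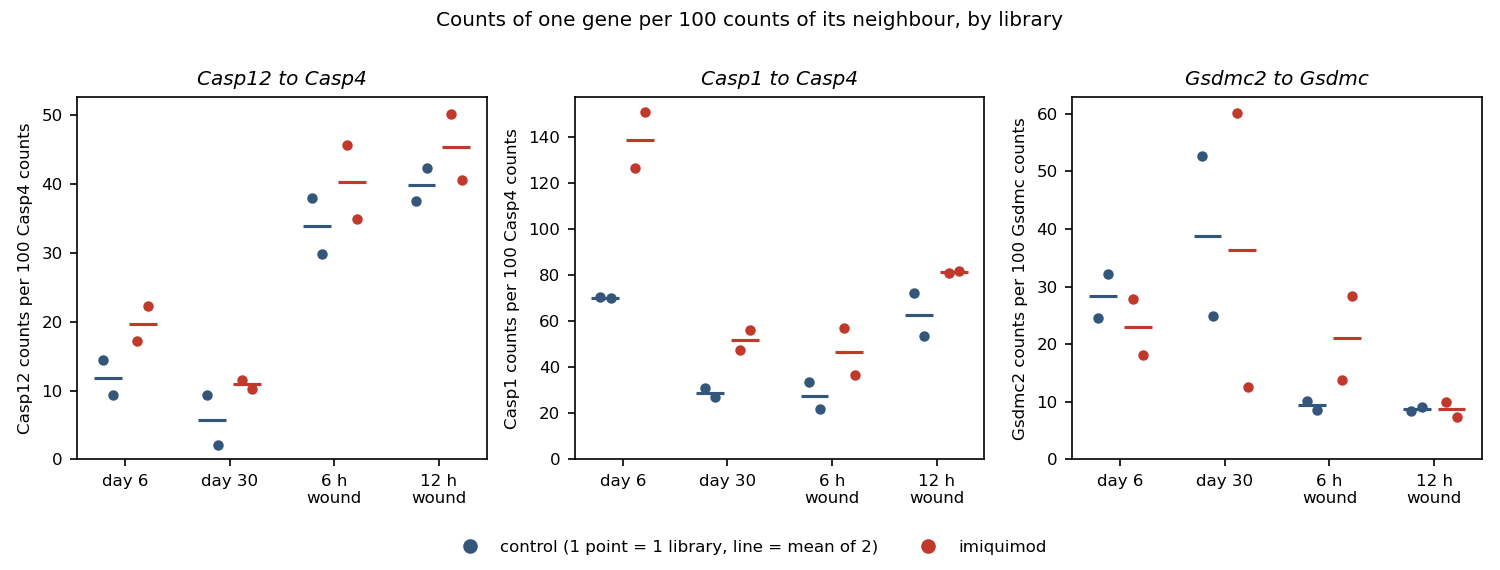
Counts of Casp12 or Casp1 per 100 counts of Casp4, and of Gsdmc2 per 100 counts of Gsdmc (vertical), by time (horizontal), 1 point per library, control in blue and imiquimod in red, with lines at the means of 2. The Casp12 to Casp4 ratio is between 29.8 and 50.2 in wounded and between 2.15 and 22.2 in unwounded libraries.

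The 3 caspase genes lie side by side on the plus strand of chromosome 9 (GRCm38), Casp1 at chr9:5298517-5307281, Casp4 at chr9:5308849-5336791 and Casp12 at chr9:5345442-5373034. The gap from Casp1 to Casp4 is 1567 bases and that from Casp4 to Casp12 is 8650 bases. No other gene of the RefSeq table overlaps any of the 9 genes. Msantd4, a gene upstream of Casp1 on that chromosome, had a log2 change with imiquimod of 0.04 ± 0.16 at day 6 (adjusted p = 0.877) and -0.06 ± 0.09 in the later mean (adjusted p = 0.992). After wounding it was higher in 3 of the 4 comparisons, by 0.54 to 0.84.

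The wound changes of Casp12 and its neighbour Casp4 had opposite signs, a difference between genes that was not tested. For comparison, the 250 bases before a transcript start of each of the 3 genes are given. They read 5′ to 3′ on the plus strand, from RefSeq (GRCm38.p6). A link of these sequences to the wound changes was not tested. Casp1 is chr9:5298267-5298516, Casp4 chr9:5308599-5308848 and Casp12 chr9:5345226-5345475, and the start that the promoter table takes for Casp12 lies inside the gene span given above. Capitals mark matches to 4 motifs searched on both strands. The motifs, chosen with the sequences and the results known, were TGANTCA (AP-1), TTCNNNGAA (STAT), GAAANNGAA (interferon regulatory factors) and GGGANTTCC (1 form of the NF-κB site).
Casp1: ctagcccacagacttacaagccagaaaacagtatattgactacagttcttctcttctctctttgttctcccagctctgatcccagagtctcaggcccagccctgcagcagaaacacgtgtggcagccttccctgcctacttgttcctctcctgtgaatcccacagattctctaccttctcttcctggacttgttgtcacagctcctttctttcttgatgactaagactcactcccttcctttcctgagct
Casp4: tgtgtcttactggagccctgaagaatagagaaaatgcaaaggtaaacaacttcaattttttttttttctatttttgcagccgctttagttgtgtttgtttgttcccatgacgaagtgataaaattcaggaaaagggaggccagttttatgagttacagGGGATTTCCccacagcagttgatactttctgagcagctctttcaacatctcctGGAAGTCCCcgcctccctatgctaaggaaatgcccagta
Casp12: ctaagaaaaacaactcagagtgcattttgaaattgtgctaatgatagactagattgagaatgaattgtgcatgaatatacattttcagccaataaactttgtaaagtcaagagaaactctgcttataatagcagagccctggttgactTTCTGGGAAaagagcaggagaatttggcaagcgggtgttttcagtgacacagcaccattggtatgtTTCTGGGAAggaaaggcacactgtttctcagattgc

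The Casp4 window holds 2 matches to the NF-κB letters, GGGATTTCC on the plus strand, which begins 92 bases before the start, and GGAAGTCCC, which reads on the minus strand and begins 39 bases before it. The Casp12 window holds 2 identical matches to the STAT letters, TTCTGGGAA, which begin 102 and 36 bases before that start, the second across the beginning of the gene span, and no 2 matches overlap. The Casp1 window holds no match to any of the 4. Of 32851 promoter windows of this length, 1.43% hold the NF-κB letters, 7.02% the STAT letters, 6.75% the AP-1 letters and 7.13% those of interferon regulatory factors. A looser NF-κB form searched first, GGGA and CC around any 4 bases, finds only the first of the 2 places in Casp4 and is held by 17.6% of windows. A match describes letters and does not show a site in use.

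Pycard, which encodes the inflammasome adapter ASC (chr7:127991373-127993867), did not pass the test with imiquimod and fell in early wounds. Its control libraries held 50.4 and 58.9 CPM at day 6, 91.9 and 159.8 at day 30, 46.4 and 28.8 in 6 h wounds, and 88.5 and 76.7 in 12 h wounds. Its imiquimod libraries held 87.6 and 77.7 CPM at day 6, 100.1 and 106.0 at day 30, 57.8 and 37.3 in 6 h wounds, and 94.8 and 81.7 in 12 h wounds. The treatment groups were separate at day 6 and overlapped at the other 3 times, and both groups of 6 h wounds were below day 30.

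Pycard fell by 1.74 ± 0.28 in 6 h control wounds (adjusted p = 0.000717, edgeR) and by 1.11 ± 0.28 in 6 h imiquimod wounds (adjusted p = 0.00779, edgeR). The second call was lost without library 2 of the 6 h imiquimod wounds (-0.86, adjusted p = 0.083). At 12 h the changes were -0.61 ± 0.28 in control skin (adjusted p = 0.115) and -0.22 ± 0.28 in imiquimod skin (adjusted p = 0.556), and without day 30 control library 1 the former passed (-0.96, adjusted p = 0.0249, edgeR). With imiquimod at day 6 the change was 0.60 ± 0.28 (adjusted p = 0.112), which passed with the block (adjusted p = 0.0134, edgeR). Its mean change in the 3 later comparisons was 0.05 ± 0.16, which did not pass (adjusted p = 1).

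Gsdmc, a gasdermin that Casp8 has been reported to cleave (chr15:63775971-63808739), had the largest change of the 9 genes at day 6 and in all 4 wound comparisons. Control libraries held 12.2 and 3.64 CPM at day 6, 5.30 and 4.99 at day 30, 25.2 and 42.8 in 6 h wounds, and 119.0 and 71.3 in 12 h wounds. Imiquimod libraries held 94.7 and 162.8 CPM at day 6, 4.89 and 7.09 at day 30, 91.8 and 60.9 in 6 h wounds, and 151.6 and 143.0 in 12 h wounds. It was high in inflamed and in wounded skin and low in all 4 day 30 libraries, where the treatments overlapped.

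With imiquimod at day 6 Gsdmc rose by 4.00 ± 0.56 on the log2 scale (adjusted p = 0.000379, edgeR), and between 3.39 and 5.11 when 1 library was left out. At day 30 its change was 0.23 ± 0.55 (adjusted p = 1). The day 6 effect exceeded that at day 30 by 3.77 ± 0.76 (adjusted p = 0.00655, edgeR). In this test of the difference 2 of the 9 genes passed, Gsdmc and Gsdmc2, both higher, where 22.5% of all genes passed and 13.7% were higher. These shares are from the fit without the block. The calls over all genes also rose with the block, as given under how the results depend on the processing. With the block 7 of 9 passed, and without both day 30 libraries that hold Y-linked reads Gsdmc had 3.35 (adjusted p = 0.0552).

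After wounding Gsdmc rose in control skin by 2.72 ± 0.55 at 6 h (adjusted p = 0.0036, edgeR) and 4.21 ± 0.57 at 12 h (adjusted p = 0.000516, edgeR). In imiquimod skin it rose by 3.67 ± 0.56 at 6 h (adjusted p = 0.000606, edgeR) and 4.61 ± 0.58 at 12 h (adjusted p = 0.000215, edgeR). All 4 calls held when any 1 library was left out. Within wounds the imiquimod libraries lay above the control libraries at both times, with changes of 1.17 ± 0.50 at 6 h (adjusted p = 0.766) and 0.63 ± 0.49 at 12 h (adjusted p = 1) that did not pass.

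Gsdmc2, a paralog of Gsdmc 15588 bases further along chromosome 15 (chr15:63824328-63845193), followed it at day 6 but not in early control wounds. Control libraries held 2.99 and 1.17 CPM at day 6, 2.79 and 1.24 at day 30, 2.55 and 3.71 in 6 h wounds, and 9.90 and 6.47 in 12 h wounds. Imiquimod libraries held 26.4 and 29.5 CPM at day 6, 2.94 and 0.89 at day 30, 12.7 and 17.3 in 6 h wounds, and 15.1 and 10.6 in 12 h wounds. In 6 h wounds the imiquimod libraries were separate from the control libraries by a wide margin, and the latter overlapped the unwounded libraries.

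The day 6 change of Gsdmc2 was 3.72 ± 0.58 (adjusted p = 0.000481, edgeR) and that at day 30 was -0.07 ± 0.59 (adjusted p = 1), a difference of 3.79 ± 0.81 (adjusted p = 0.00684, edgeR) that did not pass in a fit of only the libraries compared (3.68, adjusted p = 0.0504). In 6 h wounds the change with imiquimod was 2.27 ± 0.55, which did not pass (adjusted p = 0.328), but passed with the block (adjusted p = 0.0342, edgeR) and with DESeq2 (adjusted p = 0.00278). At 6 h the wound effect was 0.65 ± 0.57 in control skin (adjusted p = 0.399) and 2.99 ± 0.58 in imiquimod skin (adjusted p = 0.00181, edgeR), and the difference between them did not pass, as given above. At 12 h the wound effects were 2.05 ± 0.56 (adjusted p = 0.0173, edgeR) and 2.77 ± 0.57 (adjusted p = 0.00294, edgeR). The 12 h call in control skin was lost without day 30 control library 2 (adjusted p = 0.115) or 12 h control library 1 (adjusted p = 0.1).

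Per 100 counts of Gsdmc there were 10.1 and 8.66 counts of Gsdmc2 in 6 h control wounds, against 13.8 and 28.4 in 6 h imiquimod wounds. In 12 h wounds the ratios were 8.32 and 9.08 in control and 9.96 and 7.41 in imiquimod libraries. At 6 h the 2 treatments did not overlap, with library 2 of imiquimod far above the other 3 libraries, and at 12 h they overlapped. Members of the gasdermin C cluster are near-identical copies, and the sources used here do not say how reads were split between them, which leaves the split between Gsdmc and Gsdmc2 uncertain. The other 2 tabulated genes of the cluster, Gsdmc3 and Gsdmc4, reached at most 1.18 and 0.20 CPM. Gsdmc3 was nevertheless called at day 6 (4.27 ± 0.81, adjusted p = 0.00131, edgeR), with 0.04 and 0.06 CPM in control and 1.18 and 0.67 CPM in imiquimod libraries.

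Gsdma, a gasdermin of differentiating keratinocytes (chr11:98664337-98677708), split the day 30 libraries by number and not by treatment. Control libraries held 4.65 and 4.00 CPM at day 6, 3.50 and 45.8 at day 30, 13.3 and 17.1 in 6 h wounds, and 16.4 and 14.9 in 12 h wounds. Imiquimod libraries held 19.3 and 18.8 CPM at day 6, 4.07 and 24.3 at day 30, 21.0 and 22.6 in 6 h wounds, and 15.9 and 21.5 in 12 h wounds. The low day 30 libraries are the 2 with Y-linked reads. At day 6 the imiquimod libraries were separate from and above the control libraries.

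The same day 30 libraries differed in genes of differentiated epidermis. Lor, which encodes loricrin of the cornified envelope, stood at 16.9 and 500.0 CPM in the control libraries and at 15.6 and 564.0 CPM in the imiquimod libraries of day 30, and at 12.1 CPM or less in every other library. Flg, which encodes filaggrin, stood at 0.28 and 20.1 CPM in control and 0.27 and 12.9 CPM in imiquimod libraries. Krt1 stood at 7380 and 9750 CPM in control but at 6410 and 5660 CPM in imiquimod libraries of day 30. The summed level of the 8 suprabasal markers was 17580 and 31280 CPM in control and 15820 and 17150 CPM in imiquimod libraries at day 30, against 4681 to 18420 CPM elsewhere. At day 6, 3 of these 8 markers were higher with imiquimod and 0 lower, with a median log2 change of 1.68, beside 21.6% of all genes higher. Among the 8, Krtdap stood at 183 and 273 CPM in control and at 1090 and 1140 CPM in imiquimod libraries of day 6. Ivl, which encodes involucrin, stood at 15.4 and 12.4 against 36.7 and 41.2 CPM. The groups overlapped for Lor, at 3.04 and 12.1 against 0.46 and 7.04 CPM, and for Krt10, at 2380 and 4610 against 1440 and 4790 CPM. The part of these genes, or of the Y-linked reads, in the values of Gsdma was not tested.

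**Figure D4:**
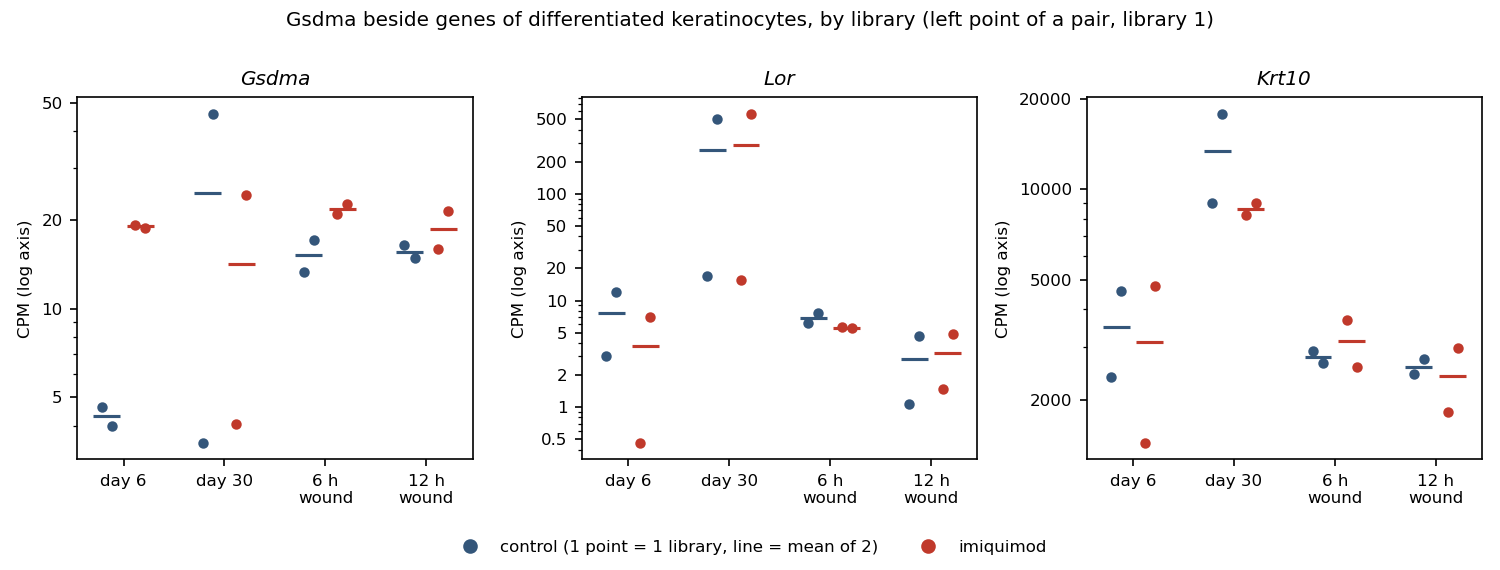
CPM on a log axis (vertical) of Gsdma, Lor and Krt10 by time (horizontal), control in blue and imiquimod in red, 1 point per library, with library 1 to the left of library 2 and lines at the means of 2. At day 30 Gsdma and Lor are low in library 1 and high in library 2 of either treatment, and at day 6 Gsdma is higher in both imiquimod libraries, while the groups overlap for Lor and for Krt10.

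The day 6 change of Gsdma was 2.13 ± 0.98 in the fit of all 16 libraries, which did not pass (adjusted p = 0.118). In a fit of the 4 day 6 libraries alone it was 2.01 (adjusted p = 0.002, edgeR), and with the block 2.14 (adjusted p = 0.000186, edgeR). Its changes after wounding ran from -0.71 to 0.61 and did not pass. They turn on which day 30 libraries are kept. Without both day 30 libraries numbered 1, they were -1.62 at 6 h and -1.59 at 12 h in control skin, and both passed (adjusted p = 0.000407 and 0.000592, edgeR). Without day 30 control library 2 they turned to 2.13 and 2.17 and did not pass (adjusted p = 0.0785 and 0.0799). In imiquimod skin they were -0.19 and -0.40 without day 30 library 1, and 2.39 and 2.18 without library 2, none past the threshold. Gsdma3, its nearby paralog, was called at day 6 (3.12 ± 0.69, adjusted p = 0.0044, edgeR) on unequal libraries of 33.2 and 5.71 CPM, against 2.02 and 2.50 CPM in control. Gsdma2 reached at most 0.06 CPM.

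Gsdmd, the gasdermin cut by Casp1 and Casp4 (chr15:75862144-75867408), was measured on 11 to 222 counts per library. It stood at 1.24 and 1.23 CPM in day 6 control and at 4.45 and 4.00 CPM in day 6 imiquimod libraries, and between 0.52 and 1.98 CPM in the other 12. The day 6 imiquimod libraries were thus separate from all others. Its day 6 change was 1.77 ± 0.43 (adjusted p = 0.00602, edgeR), and its 3 later changes with imiquimod lay between 0.23 and 0.48 and did not pass. Gsdmd rose by 1.33 ± 0.46 in 12 h control wounds (adjusted p = 0.0412, edgeR), a call lost in a fit of only the libraries compared (adjusted p = 0.0565), without any 1 of the 4 libraries (adjusted p from 0.0829 to 0.178) and without both day 30 libraries that hold Y-linked reads (1.11, adjusted p = 0.162).

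Casp8 (chr1:58795233-58847503) varied least. Its 16 libraries ran from 28.6 CPM in day 6 control library 2 to 52.8 CPM in 6 h control library 2, and its group means from 33.9 to 50.9 CPM. The imiquimod libraries lay just above the control libraries at day 6, below them at day 30 and 6 h, and overlapped them at 12 h. None of its 12 tests passed. The changes with imiquimod were 0.33 ± 0.16 at day 6, -0.18 ± 0.16 at day 30, -0.22 ± 0.16 at 6 h and -0.04 ± 0.16 at 12 h, and those after wounding lay between 0.27 and 0.42. With the block, the day 6 change was 0.35 and passed (adjusted p = 0.0419, edgeR), but it rests on control libraries that differ: without control library 1 it was 0.61 (adjusted p = 0.0121, edgeR), and without control library 2 it was 0.07 (adjusted p = 0.789).

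Among 13308 protein-coding genes, those with the most similar pattern over the 16 libraries were sought by the root mean square difference of centred log2 CPM, for each of the 9 genes whose group means spanned at least 1 log2 unit. Nearest to Casp1 were Dand5 (0.51), Trim13 (0.54) and Sqor (0.54), and nearest to Casp4 were Ly6d (0.39), Pde12 (0.46) and Dmkn (0.46). Nearest to Casp12 were Lgals9 (0.53), Mrpl12 (0.63) and Abcg2 (0.63), and nearest to Pycard were Agpat3 (0.27), Ermp1 (0.29) and Klc3 (0.30). A small distance does not mean an equal span of group means. That of Casp1 was 2.32 log2 units, against 1.1 for Dand5, 1.58 for Trim13 and 2.68 for Sqor. That of Casp4 was 2.18, against 1.51 for Ly6d, 2.31 for Pde12 and 1.65 for Dmkn. That of Casp12 was 3.65, against 2.23 for Lgals9, 2.58 for Mrpl12 and 2.84 for Abcg2. Casp1 itself was 0.75 from Casp4 and 1.23 from Casp12, so none of the 3 neighbours was the closest match of another.

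Gsdma was nearest to Ephx3 (0.40), Slc26a9 (0.45) and Ptk6 (0.46), and Gsdmd to Exo1 (0.29), Dna2 (0.31) and Mcm7 (0.32). Gsdmc was nearest to Bfsp1 (0.51), Prkg2 (0.53) and Ccdc88b (0.54), and Gsdmc2 to Smpdl3b (0.50), Fcmr (0.53) and Pglyrp1 (0.54), while Gsdmc and Gsdmc2 were 0.94 from each other. The group means of Casp8 spanned 0.58 log2 units, and no search was made for it. These distances describe the libraries and carry no test.

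Of the other genes of the pathway, 16 sensors were tested at day 6, of which 2 were higher and 2 lower, with a median log2 change of 0.58, beside 36.6% of all genes called and 21.6% higher. Aim2, the sensor of cytosolic DNA that acts through Pycard and Casp1, stood at 2.21 and 2.25 CPM in control and at 19.3 and 32.8 CPM in imiquimod libraries of day 6. At day 30 it stood at 1.14 and 1.18 CPM in control and 9.96 and 10.6 CPM in imiquimod libraries, in 6 h wounds at 1.37 and 1.16 against 19.1 and 11.9 CPM, and in 12 h wounds at 2.46 and 1.79 against 11.7 and 8.20 CPM. The groups were separate at all 4 times, as for Casp1 and Casp12.

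The log2 change of Aim2 was 3.54 ± 0.33 at day 6, 3.15 ± 0.34 at day 30 (adjusted p = 0.00709, edgeR) and 3.60 ± 0.33 at 6 h (adjusted p = 0.00123, edgeR). At 12 h it was 2.23 ± 0.31 and did not pass (adjusted p = 0.0629). No other tested gene of the 6 lists passed at day 30 or 6 h. At day 6 the helicase gene Dhx9 (0.54 ± 0.16) was also higher, and the sensor gene Nlrp1b (-3.17 ± 0.94) and Card6 (-1.26 ± 0.33) were lower.

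The median log2 change of the 8 genes of substrates and interleukin 1 family cytokines was 2.48 at day 6. Of these, 5 were higher and 0 lower, beside 21.6% of all genes higher. They included the interleukin 36 genes Il1f6 (8.76 ± 1.38), Il1f8 (6.03 ± 1.13) and Il1f9 (3.96 ± 0.47). Il18 and Il1b, whose products Casp1 matures, were named after their values were seen. Il18 rose by 3.40 ± 0.90 at day 6 (adjusted p = 0.0128, edgeR), from 0.85 and 1.02 CPM to 4.47 and 15.3 CPM. In the later mean its change was 2.32 ± 0.50, which did not pass (adjusted p = 0.153). Il1b rose by 1.56 ± 0.55 at day 6 (adjusted p = 0.0423, edgeR) at 3.05 CPM or less, and its later mean was -0.35 ± 0.33 (adjusted p = 0.966).

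In 6 h control wounds 3 of these 8 fell and 0 rose, beside 16.7% of all genes lower, with a median of -1.81. Il1f6 fell by 2.91 ± 1.02, Il18 by 2.59 ± 0.90 and Il1rn, the interleukin 1 receptor antagonist, by 2.48 ± 0.26. Il18 and Il1f6 were high in day 30 control library 2 and low in library 1, at 7.26 and 0.80 CPM for Il18 and 2.01 and 0.05 CPM for Il1f6. At 12 h only Il1rn of the 8 passed (-1.86 ± 0.25, adjusted p = 0.000239, edgeR), beside 30.8% of all genes in either direction.

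All 4 tested genes of other gasdermins and membrane rupture rose at day 6, beside 21.6% of all genes. Among them was Ninj1, which ruptures the membrane of dying cells (1.15 ± 0.14), with Gsdmc3 and Gsdma3. Of the 15 genes around Casp8 and necroptosis, 5 rose and 3 fell at day 6, with a median of -0.13, beside the same 36.6% and 21.6% over all genes. Mlkl, the pore former of necroptosis, rose by 3.13 ± 0.30, from 1.86 CPM in both control libraries to 13.3 and 19.4 CPM, with Bid (1.73 ± 0.30) and Ripk3 (1.32 ± 0.46). The death receptor gene Fas (-1.81 ± 0.35), Cyld (-1.04 ± 0.20) and Birc2 (-0.84 ± 0.16) were lower.

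In 6 h control wounds 7 of these 15 rose and 3 fell, beside 18.0% and 16.7% of all genes. At 12 h 5 rose and 4 fell, beside 16.5% and 14.3% of all genes. Bid rose by 2.49 ± 0.31 at 6 h and 2.24 ± 0.31 at 12 h, Ripk3 by 2.30 ± 0.48 and 1.38 ± 0.46, and Mlkl by 1.43 ± 0.30 and 2.76 ± 0.31. Tnfaip3, a brake on tumour necrosis factor signals, fell by 2.76 ± 0.47 at 6 h and 3.74 ± 0.49 at 12 h, and Cyld and Ripk1 fell at both times.

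Of 8 other caspase pathway genes, 4 rose and 0 fell at day 6, beside 21.6% of all genes higher. Casp14 of cornification rose by 2.08 ± 0.32 and Cycs by 1.77 ± 0.29. In wounds of control skin Casp14 fell by 1.91 ± 0.32 at 6 h and 1.49 ± 0.32 at 12 h, and Casp9 fell at 6 h by 0.77 ± 0.23. Of 9 inhibitors and brakes, 2 rose and 1 fell at day 6, a share near the 36.6% of all genes called. Serpinb1a, an inhibitor that restrains inflammatory caspases, rose by 2.85 ± 0.36 at day 6 and by 2.51 ± 0.35 and 2.43 ± 0.35 in 6 h and 12 h control wounds.

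Leukocytes also transcribe inflammatory caspases, so their markers are given beside the results. At day 6, 11 of 15 tested macrophage and monocyte markers were higher with imiquimod and 0 lower, beside 21.6% of all genes higher. Their median log2 change was 2.68. Of 7 tested Langerhans and dendritic cell markers 3 were higher and 0 lower, with a median of 1.68, beside the same 21.6%. Adgre1 stood at 9.11 and 12.5 CPM, Csf1r at 5.17 and 6.03 CPM and Ptprc at 2.10 and 3.17 CPM in the day 6 imiquimod libraries, against at most 0.99, 2.14 and 0.83 CPM in control. Of the 9 basal epidermal markers, 1 was higher and 4 were lower at day 6, with a median of -0.45. Over all genes 36.6% were called in either direction and 21.6% higher. The part of these cells in the day 6 changes was not tested.

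In the 12 later libraries, where the caspase differences were also seen, Adgre1 was at most 0.23, Csf1r at most 0.76, Lyz2 at most 1.02 and Ptprc at most 0.30 CPM. There the median change of the 15 macrophage markers with imiquimod was 0 at day 30, -0.36 at 6 h and -0.01 at 12 h. For the 7 Langerhans and dendritic cell markers it was 0.57, -0.46 and 0.55. Of these, Cd74 stood in 12 h wounds at 12.0 and 6.22 CPM in control and 30.5 and 24.2 CPM in imiquimod libraries. H2-Ab1 stood there at 7.52 and 6.30 against 20.4 and 17.4 CPM. The part of these cells in the later changes was not tested. Of the 7 neutrophil markers, S100a8 and S100a9, which inflamed keratinocytes also express, and Cxcr2 made up nearly all of the summed level, which was 4.81 and 2.04 CPM in control and 3432 and 5145 CPM in imiquimod libraries at day 6. This sum was 12.3 and 2.80 CPM in control and 17.4 and 1.82 CPM in imiquimod libraries at day 30. It was 85.6 and 170.3 against 458.9 and 1491 CPM in 6 h wounds, and 241.5 and 237.3 against 827.5 and 716.2 CPM in 12 h wounds. Elane had no read in any library, Ly6g was at most 0.11 CPM and Mpo at most 0.14 CPM. Csf3r was at most 0.14 CPM in control and at 0.94 and 0.54 CPM in imiquimod libraries of day 6. Of the T cell markers, Cd3e was at most 0.19 and Cd3g at most 0.80 CPM. Lck stood at 1.06 and 0.84 CPM in control and at 4.39 and 3.11 CPM in imiquimod libraries of day 6. Of 2 tested T cell markers 1 was higher and 0 lower at day 6, beside 21.6% of all genes higher.

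Markers of other cells also differed between libraries of the wound comparisons. In 6 h control wounds 6 of 15 macrophage markers were higher and 0 lower, with a median log2 change of 2.04, beside 18.0% of all genes higher. In the same comparison 4 of 8 suprabasal markers were lower and 0 higher, with a median of -1.62, beside 16.7% of all genes lower. The summed level of 7 fibroblast markers was 148.0 CPM in imiquimod library 1 of day 30 and from 1.65 to 4.01 CPM in the other 3 day 30 libraries. It ran from 151.2 to 497.4 CPM at day 6 and from 1.66 to 53.4 CPM in wounds. The part of these cells in the changes of the 9 genes was not tested.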

How the data were processed

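RNA was measured by sequencing after Illumina TruSeq preparation, for which the labels name no strand setting, in 16 libraries of 8 groups. The 12 ATAC-seq samples of the series were not used here. The deposited files hold whole-number counts per gene ID, made by the authors with STAR on mm10 per the submitters' processing notes. The sources used here do not give versions, the annotation or which STAR column was kept, so that reads of a gene may include those of an antisense partner. Of 47729 IDs, 47224 matched a symbol (RefSeq table, GRCm38), and coordinates are from that table.

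Counts were tested in R 4.3.3 with edgeR 4.0.16 (TMM scaling, filterByExpr by group, robust quasi-likelihood F test, two-sided), in 1 fit of 8 group means over 16 libraries (residual degrees of freedom: 8). Of 30802 genes with a read, 17299 passed the filter, all 9 members among them. P-values were adjusted by Benjamini-Hochberg over these genes within a comparison, with a threshold of 0.05. CPM use the TMM-scaled totals, and the SE comes from the F statistic. The scripts were tested on simulated data. Alternatives were RLE scaling, DESeq2 1.42.0, no filter, thinning to the smallest total, only the libraries compared, a replicate block, and leaving out libraries.

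Libraries with the same number deviated together within a time point (correlation over genes of 0.22 to 0.539 in 4 pairs) but not between time points (-0.285 to 0.115), so the number, taken from the sample titles, was blocked within time points. Replicates differed by more than counting error. Precision from counts covers counting error only.

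The members, lists and comparisons were chosen with earlier results of these data known. The text names the members, their chromosomal neighbours, up to 3 called genes per pathway list and direction with the largest change in the imiquimod and control wound comparisons, and the 3 genes most like each member; some genes that this rule names are not reported here. The 6 lists hold 25, 8, 8, 15, 8 and 12 genes, of which 16, 8, 4, 15, 8 and 9 were tested.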

Additional observations from a re-analysis of the deposited data

Results flagged for a closer look

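The imiquimod effect on 2 genes differed between day 6 and day 30 by the test of the difference itself. For Gsdmc the day 6 effect minus the day 30 effect was 3.77 on the log2 scale (adjusted p = 0.00655, edgeR), and for Gsdmc2 it was 3.79 (adjusted p = 0.00684, edgeR). Both imiquimod libraries of day 6 were above both controls and the day 30 groups overlapped, for either gene. Of the day 30 libraries, 2 hold Y-linked reads against their label. Without those 2, Gsdmc had 3.35 (adjusted p = 0.0552) and no longer passed. In a fit of only the libraries compared, Gsdmc2 had 3.68 (adjusted p = 0.0504) and no longer passed.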

How the results depend on the processing

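No change of a member reversed its direction among those called: 300 of 345 alternatives of the 29 called changes kept direction and call, and 45 kept direction and lost the call. Of 996 alternatives of the 79 uncalled changes, 55 gained a call, 23 of them without the filter on low counts, 13 with the block and 5 with DESeq2. The number of members called was 1, 2 and 2 with DESeq2 at day 30, 6 h and 12 h (0 each in the fit reported). Without the filter it was 2, 5 and 3 there, 5 in the later mean (3 reported), 6 for day 6 minus day 30 (2 reported) and 2 for the wound effect difference at 6 h (0 reported). With the replicate block it was 9 at day 6 (6 reported), 1, 2 and 2 at day 30, 6 h and 12 h, and 7 for day 6 minus day 30, and the block changed no call in the wound comparisons. With only the libraries compared it was 1 in the later mean, 1 for day 6 minus day 30, and 3 in control wounds at 6 h and at 12 h (5 reported each). Leaving out 1 library gave 1 to 3 in the later mean, 2 to 5 for day 6 minus day 30, 3 to 4 in 6 h and 3 to 5 in 12 h control wounds, and 2 to 4 in 12 h imiquimod wounds (4 reported). The cause of these shifts was not tested. Over all genes the calls at day 30, 6 h and 12 h were 2, 6 and 0, against 20, 131 and 27 with DESeq2, 151, 441 and 182 without the filter, and 5, 28 and 20 with the block. Those of the later mean were 35, against 164, 532 and 105, and 7 to 49 when 1 library was left out. For day 6 minus day 30 they were 3894, against 1802 with only the libraries compared and 5927 with the block, and in 6 h control wounds 6003 against 3475 with only the libraries compared. For the other alternatives and comparisons named above, the calls over all genes are not reported here. The member counts there have no background beside them and say nothing about the 9 genes as a group. Depth limits the precision for Gsdmd, which rested on 11 to 222 counts a library.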
